A study of Arabidopsis thaliana with 6 samples.

Results

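The glycerol-3-phosphate acyltransferases GPAT1 to GPAT9 of Arabidopsis thaliana were followed in mature root tissue. They are 9 of the 32833 genes in the deposited tables, found in those tables by gene identifier. Root segments came from a line labelled myb68 myb84 and from the wild type Col (WT), both without treatment and 18 days old. Seedlings stood on plates in constant light at 22 °C. From each primary root the top 2 cm were harvested, and each of the 3 libraries per genotype pools at least 40 plants. The genes named in the line encode transcription factors of the R2R3 MYB family, studied here for their part in suberin formation. What the mutant alleles are is not stated in the labels.

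A glycerol-3-phosphate acyltransferase joins a fatty acyl chain to glycerol-3-phosphate. GPAT4 to GPAT8 take chains that carry an oxidised end and place them on the middle position of glycerol, which gives building blocks of the extracellular polyesters cutin and suberin. GPAT4, GPAT6 and GPAT8 also remove the phosphate and serve cutin, the polyester of the shoot surface, whereas GPAT5 and GPAT7 lack that phosphatase activity and serve suberin, which in an old root lies in the endodermis and in the cork layer (phellem). GPAT9 starts the assembly of membrane and storage lipids in the endoplasmic reticulum, GPAT1 is needed for the tapetum and pollen, and the roles of GPAT2 and GPAT3 are less settled.

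Library totals ran from 32216039 to 55907128 counts in myb68 myb84 and from 19446419 to 51770078 in WT. MYB84 had 5.94, 4.90 and 7.17 CPM (counts relative to the library total after TMM scaling) in myb68 myb84, against 8.96, 7.84 and 13.0 CPM in WT (log2 fold change -0.70, edgeR adjusted p = 0.0442). MYB68 had 60.8, 67.7 and 74.8 CPM in myb68 myb84, against 49.3, 49.5 and 62.3 CPM in WT, and did not pass (0.34, edgeR adjusted p = 0.0613). The MYB84 call ended without myb68 myb84 1, myb68 myb84 2, WT 1 or WT 3 (adjusted p up to 0.149). Transcript counts therefore do not check the MYB68 part of the label, and the series' design text names MYB86 at 1 point where the sample labels have myb84. Root markers were present in every library, with a summed level of the phosphate, nitrate and water transporters PHT1;1, NRT2.1, TIP2;2 and TIP2;3 of 695 to 765 CPM in myb68 myb84 and 597 to 656 CPM in WT.

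Of the GPAT genes that serve polyesters, GPAT4, GPAT5 and GPAT6 were lower in the mutant root, while GPAT9 of membrane lipid assembly differed by less than the spread between libraries. All 9 members passed the low-count filter, and edgeR's quasi-likelihood test with Benjamini-Hochberg adjustment over all 20941 tested genes called GPAT5, GPAT4 and GPAT6 lowered and 0 members raised. Over all tested genes 8.30% were called, 3.65% as lowered and 4.66% as raised. The other 6 members did not pass, among them GPAT7 and GPAT8, which also serve polyesters. GPAT1, outside the polyesters, had a log2 fold change of -0.37 (edgeR adjusted p = 0.0555), close to the -0.39 of GPAT4. A negative log2 fold change (myb68 myb84 over WT) was found for 8 of 9 members, with GPAT3 the exception, and their median was -0.36, against 0.00 over all tested genes. At an unadjusted p under 0.05, 4 members were lower, against 10.8% of all tested genes. The 2 genotypes did not overlap, with every mutant library below every WT library, in 4 members, against 13.2% of all tested genes (27.2% in either direction).

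**Figure D1:**
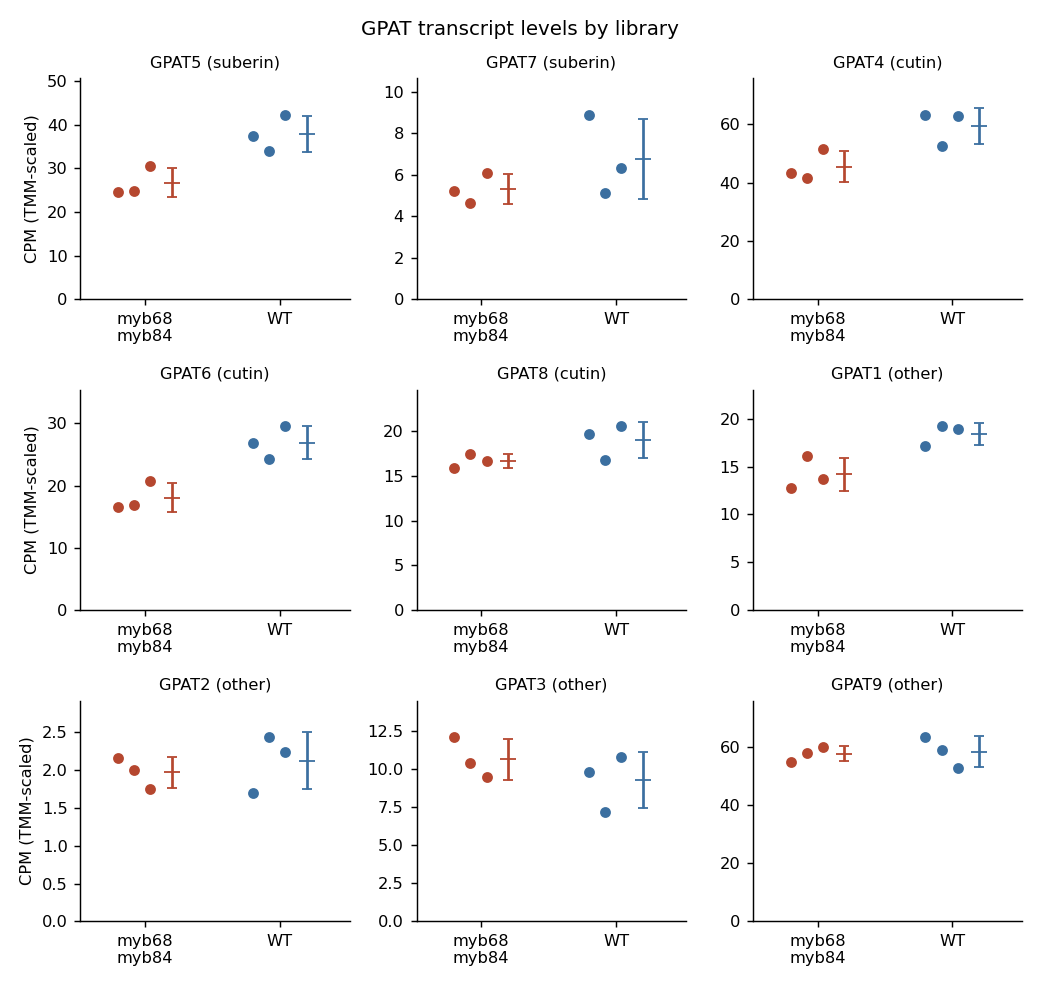
Transcript level in CPM (TMM-scaled, linear axes from 0) of each GPAT gene, with 1 point per library (replicates 1 to 3 from left to right) and the mean ± SD of 3 libraries beside them. In GPAT5, GPAT4, GPAT6 and GPAT1 all 3 myb68 myb84 libraries lie below all 3 WT libraries, while GPAT9 lies at 55.1 to 60.1 CPM in myb68 myb84 and 52.9 to 63.4 CPM in WT.

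The members differed widely in level, compared here as CPM per kb of exon. GPAT9 stood highest, at 41.4 ± 1.81 CPM per kb in myb68 myb84 and 41.8 ± 3.77 in WT (SD, n = 3 each). GPAT4 followed at 23.7 ± 2.75 in myb68 myb84 and 31.0 ± 3.20 in WT, and GPAT5 at 13.3 ± 1.66 in myb68 myb84 and 18.9 ± 2.06 in WT. A cutin-type gene thus had a higher transcript level in this root segment than the main suberin gene, in each of the 6 libraries. GPAT2 was the lowest member, at 0.949 ± 0.10 CPM per kb in myb68 myb84 and 1.02 ± 0.183 in WT.

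In myb68 myb84 the order from high to low was GPAT9, GPAT4, GPAT5, GPAT8, GPAT6, GPAT1, GPAT3, GPAT7 and GPAT2. In WT, GPAT6 (12.1 ± 1.18 CPM per kb) stood above GPAT8 (9.49 ± 0.984) with no overlap between their libraries, and the rest of the order was the same. In myb68 myb84 these 2 neighbours overlapped, with GPAT8 at 7.96 to 8.70 and GPAT6 at 7.44 to 9.38 CPM per kb. The other overlapping neighbours were GPAT1 with GPAT3 in myb68 myb84 and GPAT3 with GPAT7 in WT. Summed per kb, GPAT5 and GPAT7 reached 14.9 to 18.5 in myb68 myb84 and 19.7 to 24.4 in WT, and GPAT4, GPAT6 and GPAT8 reached 37.9 to 44.5 in myb68 myb84 and 46.7 to 56.4 in WT. The 4 remaining members together gave 52.3 to 55.0 CPM per kb in myb68 myb84 and 52.7 to 58.7 in WT. GPAT9 therefore made up 37.5% ± 1.02 of the summed family level in myb68 myb84 and 32.0% ± 3.31 in WT, and GPAT5 made up 12.1% ± 0.785 in myb68 myb84 and 14.5% ± 1.15 in WT.

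**Figure D2:**
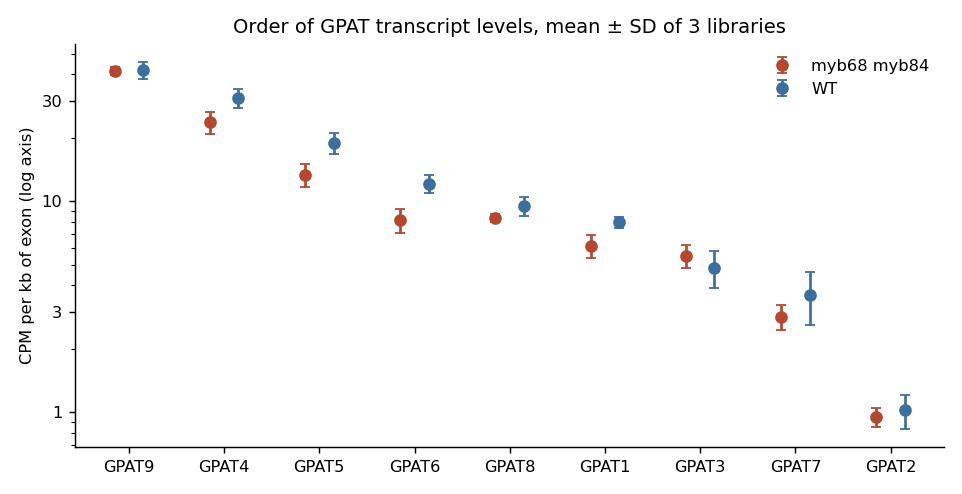
Mean level of each GPAT gene in CPM per kb of exon on a log axis, with error bars of 1 SD over 3 libraries per genotype, ordered by the WT mean. Levels span from about 1 CPM per kb in GPAT2 to 41.4 in myb68 myb84 and 41.8 in WT for GPAT9, and GPAT6 and GPAT8 overlap in myb68 myb84 but not in WT.

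GPAT5 (AT3G11430, TAIR10.1 chromosome 3, 3595694 to 3597952, plus strand), the acyltransferase of root and seed coat suberin, was lower in the mutant. It had 24.6, 24.9 and 30.5 CPM in myb68 myb84, against 37.5, 33.9 and 42.2 CPM in WT. All mutant libraries were below all WT libraries, and myb68 myb84 3 lay closest to the WT range. The mutant level was 70.7% of WT (log2 fold change -0.50, SE 0.10, edgeR adjusted p = 0.0104). The call ended without myb68 myb84 1 (adjusted p = 0.0505) or myb68 myb84 2 (0.0518) and stayed in the other 4 fits of 5 libraries. In bulk tissue, fewer cork or endodermal cells and less transcript per cell cannot be told apart. The endodermal Casparian strip genes CASP1 to CASP5 had a summed level of 118 to 138 CPM in myb68 myb84 and 130 to 151 CPM in WT, with none at 0. Of the 5, edgeR, DESeq2 and limma-voom each called 0, and 0 had an unadjusted p under 0.05 in edgeR.

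GPAT7 (AT5G06090, chromosome 5, 1835047 to 1837037, plus strand), the close relative of GPAT5, was scarcer and more variable. It had 5.23, 4.65 and 6.08 CPM in myb68 myb84, against 8.86, 5.10 and 6.30 CPM in WT. The genotypes overlapped, and WT 1 stood above the other 5 libraries. The log2 fold change of -0.36 (95% interval -0.79 to 0.07) did not pass in edgeR (adjusted p = 0.323), and without WT 1 it was -0.09. The interval holds both no change and the change of GPAT5. Among cutin genes too low to test, some had most of their reads in WT 1, and those given here were chosen after their values were seen. LTL1, a GDSL lipase gene, had 1.16 CPM in WT 1 and at most 0.152 CPM in the other 5 libraries, and CUS2, a cutin synthase gene, had 0.965 CPM in WT 1 and at most 0.0713 CPM elsewhere. Their part in the GPAT7 value was not tested.

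The coding sequences of GPAT5 (1509 bases) and GPAT7 (1503 bases) were 77.9% identical, against 82.7% for GPAT4 and GPAT8, 71.7% for GPAT2 and GPAT3 and 62.9% for GPAT4 and GPAT6. Across the suberin and cutin members, identities ran from 54.1% (GPAT6 and GPAT7) to 55.7% (GPAT5 and GPAT6). The first 60 coding bases that align without a gap are shown for both close pairs, because they show how far reads of such copies can be assigned. Capitals mark the bases that differ within a pair, 14 of 60 between GPAT5 and GPAT7 and 15 of 60 between GPAT4 and GPAT8.
GPAT5: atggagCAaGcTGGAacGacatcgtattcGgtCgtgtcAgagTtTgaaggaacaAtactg
GPAT7: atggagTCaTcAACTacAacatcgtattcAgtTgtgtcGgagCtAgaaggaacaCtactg
GPAT4: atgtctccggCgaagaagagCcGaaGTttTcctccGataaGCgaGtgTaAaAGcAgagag
GPAT8: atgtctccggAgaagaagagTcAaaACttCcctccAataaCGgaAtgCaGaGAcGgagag
The stretch starts at coding base 7 in GPAT5 and at coding base 1 in the other 3 genes. Of all windows of 50 bases within exons, 0 were shared between any of the 9 members. Windows that recur anywhere in the genome numbered 5 of 2116 in GPAT6, 6 of 1802 in GPAT8 and 0 in the other 7 members. The counting mode for reads with several matches is not stated in the labels or processing notes.

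Of the cutin members, GPAT6 (AT2G38110, chromosome 2, 15952496 to 15955752, minus strand), which is needed for cutin of floral organs, showed the largest fall of the 9 genes. It had 16.5, 16.9 and 20.8 CPM in myb68 myb84, against 26.9, 24.3 and 29.5 CPM in WT. The genotypes did not overlap, and the mutant stood at 67.4% of WT (log2 fold change -0.57, SE 0.11, edgeR adjusted p = 0.00670). The call held whichever of the 6 libraries was dropped, with an adjusted p of at most 0.0359.

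GPAT4 (AT1G01610, chromosome 1, 221642 to 224351, minus strand) and GPAT8 (AT4G00400, chromosome 4, 173953 to 176870, minus strand) act redundantly in leaf and stem cutin. GPAT4 had 43.2, 41.6 and 51.4 CPM in myb68 myb84, against 63.1, 52.4 and 62.9 CPM in WT. The highest mutant library came close to the lowest WT library without crossing it, and the mutant level was 76.4% of WT (log2 fold change -0.39, SE 0.10, edgeR adjusted p = 0.0275). That call ended without myb68 myb84 1, myb68 myb84 2, WT 1 or WT 3 (adjusted p up to 0.118). GPAT8 had 15.9, 17.4 and 16.6 CPM in myb68 myb84, against 19.7, 16.7 and 20.5 CPM in WT. WT 2 lay within the mutant range, and the difference of -0.19 (95% interval -0.41 to 0.03) did not pass (edgeR adjusted p = 0.307).

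**Figure D3:**
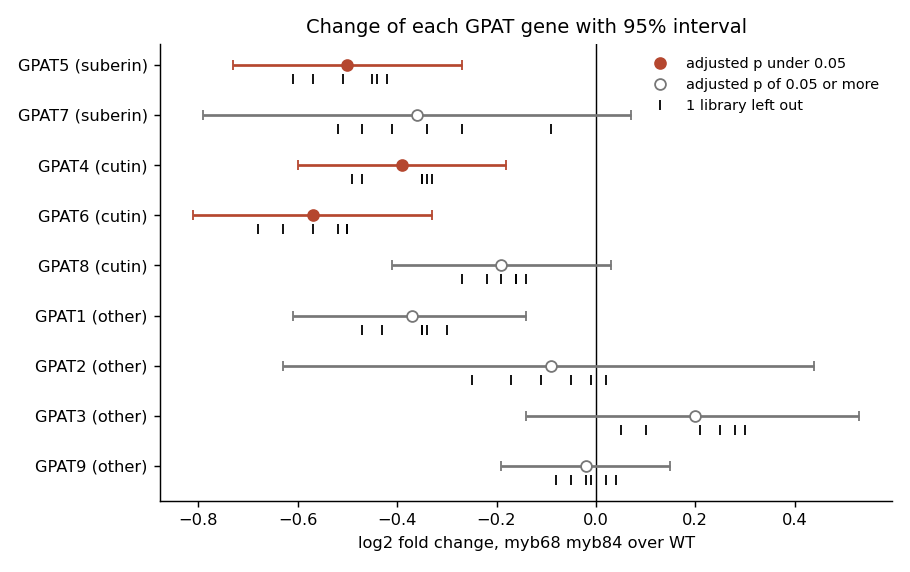
Log2 fold change of each GPAT gene, myb68 myb84 over WT, with its 95% interval from the edgeR fit of 6 libraries. Filled points passed an adjusted p of 0.05, and black ticks under each point give the value with 1 library left out. The intervals of GPAT5, GPAT4, GPAT6 and GPAT1 lie below 0, and leaving out WT 1 takes GPAT7 to -0.09.

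Whether 2 members changed by different amounts was tested as the ratio of their counts within a library, which needs no scaling between libraries. With 3 libraries against 3 the exact two-sided permutation test cannot go below p = 0.1, so none of the 4 ratios could pass. The ratio of GPAT6 to GPAT4 counts was 0.381, 0.407 and 0.404 in myb68 myb84, against 0.426, 0.464 and 0.469 in WT. It was lower in each mutant library than in any WT library, a log2 difference of -0.19 (exact permutation p = 0.1, adjusted over the 4 ratios 0.2). The ratio of GPAT9 to GPAT5 counts was 2.24, 2.34 and 1.97 in myb68 myb84, against 1.69, 1.74 and 1.26 in WT. These groups did not overlap either, with a log2 difference of 0.49 (exact permutation p = 0.1, adjusted 0.2). With 1 library left out, this difference ran from 0.34 (without WT 3, exact permutation p = 0.2) to 0.58 (without WT 2). The difference of GPAT6 over GPAT4 then ran from -0.23 to -0.16.

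The paralog ratios overlapped between the genotypes. GPAT5 over GPAT7 was 4.70, 5.33 and 5.01 in myb68 myb84, against 4.23, 6.64 and 6.67 in WT (log2 difference -0.19, exact permutation p = 0.4). GPAT8 over GPAT4 was 0.368, 0.418 and 0.322 in myb68 myb84, against 0.312, 0.320 and 0.326 in WT (0.20, exact permutation p = 0.2). The GPAT5 over GPAT7 overlap rested on WT 1, and the GPAT8 over GPAT4 overlap needed both myb68 myb84 3 and WT 3. Without WT 1 the GPAT5 over GPAT7 difference was -0.41 and the groups were apart (exact permutation p = 0.1, the smallest that 3 against 2 libraries allow), while without WT 2 it was -0.09 and without WT 3 -0.08. Without myb68 myb84 3 the GPAT8 over GPAT4 difference was 0.30 and the groups were apart (exact permutation p = 0.1), while without myb68 myb84 2 it was 0.11. Without WT 3 the groups were apart as well, with a difference of 0.22 (exact permutation p = 0.2). A difference in response within either pair was therefore neither shown nor excluded by these 6 libraries.

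**Figure D4:**
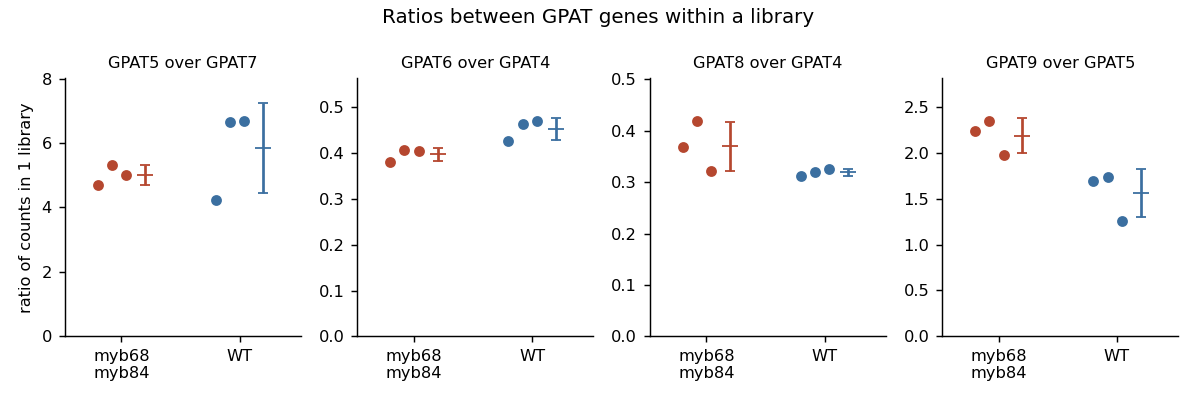
Ratio of the counts of 2 GPAT genes within each library on linear axes from 0, with 1 point per library and the mean ± SD of 3 libraries. For GPAT6 over GPAT4 and for GPAT9 over GPAT5 the genotypes do not overlap, and for both pairs of paralogs they do.

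Of the members outside the polyesters, GPAT9 (AT5G60620, chromosome 5, 24367142 to 24369790, plus strand) had 55.1, 58.2 and 60.1 CPM in myb68 myb84, against 63.4, 59.2 and 52.9 CPM in WT. The WT libraries spanned the mutant range on both sides. Its log2 fold change was -0.02 with a 95% interval of -0.19 to 0.15 (edgeR adjusted p = 0.917). That interval leaves out the values fitted for GPAT5, GPAT6 and GPAT4, but the interval of GPAT4 (-0.60 to -0.18) reaches into it. GPAT9 was not tested against GPAT4 or GPAT6. GPAT9 has 12 exons, against 4 in GPAT4 and GPAT8 and 2 in each of the other 6 members, and it overlaps AT5G60630 on the opposite strand by 141 bases. AT5G60630 averaged 0.244 ± 0.0447 CPM in myb68 myb84 and 0.308 ± 0.0857 CPM in WT.

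GPAT1 (AT1G06520, chromosome 1, 1993903 to 1996355, minus strand) had 12.8, 16.1 and 13.7 CPM in myb68 myb84, against 17.1, 19.2 and 18.9 CPM in WT. Every mutant library was below every WT library, at 77.1% of the WT level on average. The log2 fold change of -0.37 (95% interval -0.61 to -0.14) missed the threshold in edgeR (adjusted p = 0.0555, unadjusted p = 0.00495). It passed in DESeq2 (adjusted p = 0.0446), with upper-quartile scaling (0.0430), with no low-count filter (0.0467) and in thinned libraries (0.0367). It did not pass with DESeq2 size factors (0.0551), with a CPM minimum of 1 (0.0525) or in limma-voom (0.0506), and the adjusted p ranged up to 0.183 with 1 library left out.

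GPAT3 (AT4G01950, chromosome 4, 844342 to 846814, minus strand) had 12.1, 10.4 and 9.47 CPM in myb68 myb84, against 9.83, 7.23 and 10.8 CPM in WT. The genotypes overlapped, and the difference of 0.20 (95% interval -0.14 to 0.53) did not pass (edgeR adjusted p = 0.516). Without WT 2 it was 0.05, and without WT 3 it was 0.30. GPAT2 (AT1G02390, chromosome 1, 480650 to 483373, plus strand) had 2.16, 2.00 and 1.75 CPM in myb68 myb84, against 1.70, 2.43 and 2.24 CPM in WT, again overlapping. It rested on 64 to 98 counts per library in myb68 myb84 and 44 to 88 in WT, and the 44 counts of WT 3 have a 95% Poisson interval of 32.0 to 59.1 that covers counting error only. Its interval of -0.63 to 0.44 on the log2 scale is the widest of the 9 members and holds both no change and the change of GPAT4 (log2 fold change -0.09, edgeR adjusted p = 0.874).

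GPAT5 and GPAT6 had nearly the same pattern across libraries, although 1 serves suberin and the other cutin. Likeness was measured as the root mean square difference of log2 CPM, centred on each gene's mean, over the 6 libraries, among genes with a mean of at least 1 CPM. The measure spans both genotypes, so it includes the fold changes given above and is not independent of them. Among 19165 genes, GPAT6 was the one nearest to GPAT5 (difference 0.037) after the VQ motif gene AT4G15120 (0.036) and the microtubule-associated protein gene MAP70-4 (0.037). For GPAT6 itself the nearest gene was AT1G78990, annotated as a member of the HXXXD-type acyltransferase family (0.013), followed by GPAT5 (0.037) and PAL4, a phenylalanine ammonia-lyase (0.038). The genes nearest to GPAT4 were the lipid transfer family gene AT5G46900 (0.037), the kinase gene BSK2 (0.038) and LACS2, an acyl-CoA synthetase of cutin synthesis (0.047). GPAT7 had GPAT4, not GPAT5, as its nearest relative in the family (0.176), and for GPAT8 this was GPAT4 as well (0.150). Even the nearest of all genes to GPAT7 was 0.084 away. The lowest and highest raw counts of GPAT7 were 124 in WT 3, the shallowest library, and 459 in WT 1 (6.30 and 8.86 CPM). The part of counting error in the distances of GPAT7 was not tested.

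For GPAT1 the nearest genes were bHLH39, HOS10 and AT5G49525 (0.048 to 0.051), for GPAT2 AT1G58590, AT3G60200 and AT2G30820 (0.053 to 0.059) and for GPAT3 AT2G27330, AT1G15165 and AT5G01700 (0.037 to 0.047). GPAT7 was nearest to AT5G52790, AT3G62050 and TOC64-V (0.084 to 0.102), GPAT8 to AT1G63830, PTAC12 and AT2G02610 (0.021 to 0.026) and GPAT9 to Toc90, RBL6 and SPD1 (0.017 to 0.024). With 6 libraries, such ranks describe these samples only.

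The 250 bases before the annotated start of GPAT5, GPAT6 and GPAT7 are shown. GPAT5 and GPAT6 were taken because their levels ran together, and GPAT7 as the other member of the suberin pair. Capitals mark matches to ACCNANC on either strand, letters that cover the AC elements bound by plant R2R3 MYB factors.
GPAT5 (chr3:3595444-3595693, plus strand): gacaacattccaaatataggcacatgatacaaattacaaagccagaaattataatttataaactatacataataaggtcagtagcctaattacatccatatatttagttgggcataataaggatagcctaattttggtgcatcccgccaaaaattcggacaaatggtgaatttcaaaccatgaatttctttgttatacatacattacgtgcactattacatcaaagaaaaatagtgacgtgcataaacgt
GPAT6 (chr2:15955753-15956002, minus strand): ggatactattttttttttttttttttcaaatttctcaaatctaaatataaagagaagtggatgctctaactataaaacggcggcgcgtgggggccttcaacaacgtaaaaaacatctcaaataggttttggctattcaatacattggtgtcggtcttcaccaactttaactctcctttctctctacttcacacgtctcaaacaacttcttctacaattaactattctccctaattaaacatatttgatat
GPAT7 (chr5:1834797-1835046, plus strand): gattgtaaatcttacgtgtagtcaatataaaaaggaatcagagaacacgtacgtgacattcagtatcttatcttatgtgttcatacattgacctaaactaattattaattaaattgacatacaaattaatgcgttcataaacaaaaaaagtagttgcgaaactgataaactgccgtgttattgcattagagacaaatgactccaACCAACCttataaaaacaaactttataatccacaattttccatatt
GPAT7 holds 1 match, ACCAACC, starting 46 bases before the start, and GPAT5 and GPAT6 hold 0. These counts hold for this pattern only, and ACCAACT in the GPAT6 window falls outside it by its last letter. Among the 9 members, GPAT7 and GPAT9 had a match in this window, against 27.8% of 27443 protein-coding genes. Sequences and positions are those of the RefSeq TAIR10.1 assembly.

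On the chromosome, GPAT4 lies tail to tail with CYP86A4, an omega-hydroxylase gene of cutin monomers, at a distance of 355 bases. CYP86A4 had 3.07, 3.12 and 3.28 CPM in myb68 myb84, against 4.88, 5.14 and 6.25 CPM in WT, and fell (log2 fold change -0.77, SE 0.17, edgeR adjusted p = 0.0157). The call ended without any 1 of the mutant libraries (adjusted p up to 0.0544). On the other side of GPAT4, 1313 bases away, the aquaporin gene PIP1C fell by 0.32 on the log2 scale (edgeR adjusted p = 0.0435), a call that held only without WT 3. GPAT8 has the related hydroxylase gene CYP86A2 10929 bases away, with 5 annotated genes between them. CYP86A2 had 26.4, 26.7 and 33.4 CPM in myb68 myb84, against 39.3, 38.5 and 43.0 CPM in WT, and fell by 0.48 on the log2 scale (edgeR adjusted p = 0.00923). GPAT8 did not pass, and it was not tested against CYP86A2. Of the other nearest neighbours of the members, those tested had adjusted p-values of 0.251 or more.

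Most genes of a list of suberin partners were lower too. Of 13 tested suberin partners (hydroxylases, elongases, reductases, phenolic acyltransferases and transporters), 11 fell and 0 rose, with a median of -0.48. Like the lists below, this list was drawn up with earlier results of these data known. Over all tested genes 3.65% were called lowered. CYP86A1, an omega-hydroxylase of suberin synthesis, averaged 153 ± 13.7 CPM in myb68 myb84 and 223 ± 9.61 CPM in WT (n = 3 each). KCS20, an elongase, fell by 0.58 on the log2 scale, FAR1, a fatty acyl reductase, by 0.48 and FACT, a caffeoyl transferase of fatty alcohols, by 0.46. These 4 calls held whichever of the 6 libraries was dropped, and GPAT5 (-0.50) lay close to the median of its partners. Without myb68 myb84 2 the number of partners lowered was 6, and without WT 1 or without WT 3 it was 7.

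Of 14 listed cutin partners, 4 were too low to test. Over all tested genes 3.65% were called lowered. Of the 10 tested cutin partners, 3 fell and 0 rose, with a median of -0.46. These were CYP86A2, CYP86A4 and ABCG32, a transporter of cutin precursors that fell by 0.60 on the log2 scale (edgeR adjusted p = 0.0244), a call that held only without WT 2 or without WT 3. Without any 1 of the mutant libraries the number was 1. The other 7 did not pass, and 9 of the 10 tested had a negative log2 fold change. CYP86A8, a hydroxylase gene named after its values were seen, averaged 39.0 ± 4.11 CPM in myb68 myb84 and 39.8 ± 4.70 CPM in WT (-0.03, edgeR adjusted p = 0.916). Of 8 tested acyl-CoA synthetases, which activate fatty acids for these reactions, LACS1 (-0.52, edgeR adjusted p = 0.0373) and LACS2 (-0.37, edgeR adjusted p = 0.0234) fell and 0 rose, with a median of -0.02. LACS1 and LACS2 are the members known for cutin and wax. LACS1 lost its call whichever library was dropped. The count of 2 fell to 0 without myb68 myb84 1, myb68 myb84 2, WT 1 or WT 3, and to 1 without myb68 myb84 3.

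The glycerol backbone showed 1 change. GPDHC1, a cytosolic glycerol-3-phosphate dehydrogenase that makes glycerol-3-phosphate, had 53.0, 49.1 and 54.1 CPM in myb68 myb84, against 70.6, 67.6 and 67.6 CPM in WT. The groups were well apart, and the fall of 0.40 on the log2 scale (SE 0.07, edgeR adjusted p = 0.00320) held whichever of the 6 libraries was dropped. The other 4 genes of glycerol-3-phosphate supply did not pass, and the list median was 0.01. Over all tested genes 3.65% were called lowered. CYP86A2, FAR1 and GPDHC1 overlap annotated neighbours, whose reads cannot be told apart without a strand setting. The same holds for the suberin partners FAR4 and ABCG1, for DGAT2, MYB92, MYB53, RCA, CASP1 and CASP5, and for further listed genes.

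Genes of membrane and storage lipid assembly, the pathway of GPAT9, gave no call. Of 11 tested genes edgeR called 0 in either direction, with 0 lower and 2 higher at an unadjusted p under 0.05 and a median of 0.04. DGAT2, a diacylglycerol acyltransferase, averaged 66.5 ± 3.06 CPM in myb68 myb84 and 64.6 ± 4.87 CPM in WT, and LPAT2, which adds the second chain after GPAT9, averaged 70.9 ± 2.87 CPM in myb68 myb84 and 75.4 ± 2.57 CPM in WT. DESeq2 and limma-voom also called 0 of these 11 genes. ATS1, the plastid counterpart of the GPAT family and named after its values were seen, had 24.6, 24.1 and 20.4 CPM in myb68 myb84, against 18.1, 20.7 and 15.3 CPM in WT. It was higher by 0.35 on the log2 scale with overlapping groups (edgeR adjusted p = 0.0921).

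Regulators known to act on polyester genes gave no call either. Of 12 listed factors, 7 were tested and 0 were called, with 1 lower and 1 higher at an unadjusted p under 0.05 and a median of 0.08. That median was -0.08 without myb68 myb84 3, 0.24 without myb68 myb84 2 and 0.22 without WT 3. DESeq2 and limma-voom called 0 as well. MYB92, an activator of suberin genes, averaged 37.5 ± 2.15 CPM in myb68 myb84 and 32.7 ± 2.97 CPM in WT, and its relative MYB93 averaged 27.3 ± 2.46 CPM in myb68 myb84 and 28.5 ± 1.74 CPM in WT. MYB53, a suberin MYB factor named after its values were seen, had 3.34, 4.24 and 6.52 CPM in myb68 myb84, against 6.91, 6.05 and 7.57 CPM in WT. Its groups overlapped through myb68 myb84 3, and the log2 fold change of -0.52 did not pass (edgeR adjusted p = 0.18, unadjusted p = 0.0337) except without that library. The cutin factors SHN1, SHN3 and MYB106 had 0 counts in every library, which allows up to 0.154 CPM in WT 3, the shallowest.

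**Figure D5:**
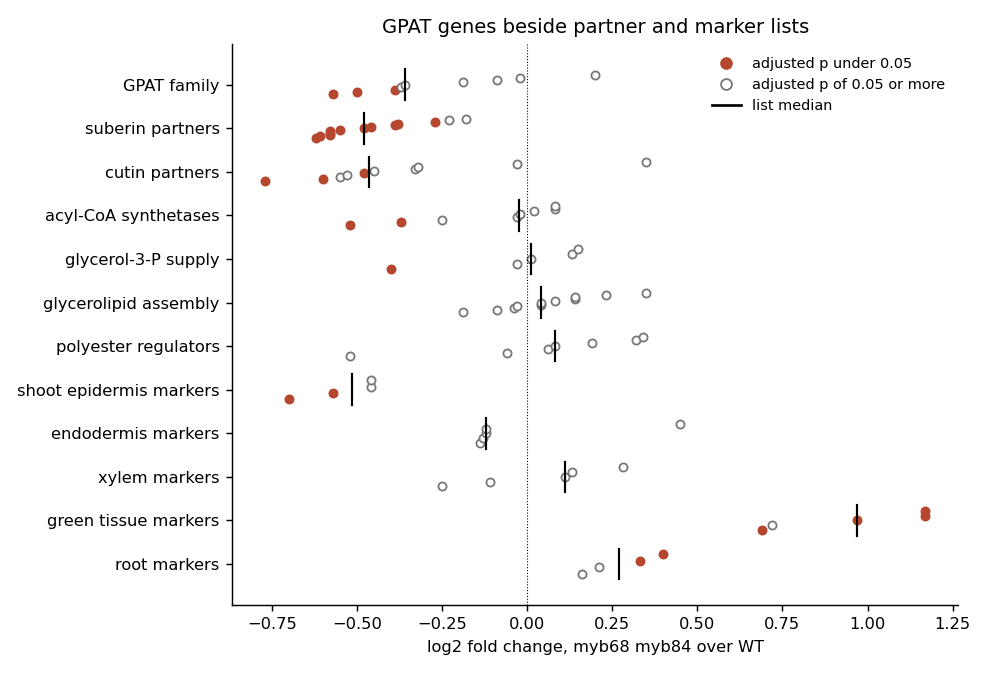
Log2 fold change, myb68 myb84 over WT, of every tested gene of the GPAT family and of the partner and marker lists, with filled points for an adjusted p under 0.05 and a black bar at each list's median. Suberin partners (median -0.48), cutin partners (-0.46) and shoot epidermis markers (-0.52) lie mostly below 0, while glycerolipid assembly centres at 0.04 and green tissue markers lie above 0 (0.97).

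Markers of other cell types also moved between the genotypes. The shoot epidermis markers ATML1, PDF1, PDF2 and FDH, of which FDH is itself an elongase of cuticle lipids, summed to 60.8 to 64.3 CPM in myb68 myb84 and 85.5 to 105 CPM in WT. All 4 were lower in the mutant on average, none was at 0, and PDF1 (-0.70, edgeR adjusted p = 0.00114) and FDH (-0.57, edgeR adjusted p = 0.000639) fell. Their part in the lower levels of GPAT4, GPAT5 and GPAT6 was not tested. Both calls held whichever library was dropped. The green tissue markers RBCS1A, CAB2, CAB3, LHCB2.1 and RCA summed to 1300 to 1460 CPM in myb68 myb84 and 546 to 891 CPM in WT. Of these, 4 of 5 rose, none was at 0, and CAB3 and LHCB2.1 each rose by 1.17 on the log2 scale. Over all tested genes 4.66% were called raised and 3.65% lowered. The xylem markers summed to 162 to 184 CPM in myb68 myb84 and 163 to 188 CPM in WT, and none was at 0. Of the 5, edgeR, DESeq2 and limma-voom each called 0, with 1 lower and 1 higher at an unadjusted p under 0.05 in edgeR. Of the 4 root markers, TIP2;2 and TIP2;3 rose by 0.33 and 0.40 on the log2 scale. The calls of TIP2;2, TIP2;3, RBCS1A and RCA each ended in 2 to 4 of the 6 fits with a library left out (adjusted p up to 0.198).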

How the data were processed

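RNA was sequenced from 3 libraries each of myb68 myb84 and WT roots, grouped by sample title and genotype label. The deposited files hold raw counts per gene, 1 library per file, without normalization. Per the submitters' processing notes, Trim Galore, HISAT, featureCounts and DESeq2 were used with TAIR10. The notes give no versions, annotation release or strand setting.

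Counts were fitted with edgeR 4.0.16 in R 4.3.3 (quasi-likelihood F test, robust, TMM scaling, filterByExpr with a minimum count of 10, genotype as the only term, Benjamini-Hochberg adjustment over 20941 genes, threshold 0.05). Changes are log2, myb68 myb84 over WT, and SE is its size over the root of the F statistic. The p-values measure the spread between pools of plants. Exon lengths, positions and symbols came from the RefSeq TAIR10.1 annotation, whose nuclear chromosomes are those of TAIR10, and 32548 of 32833 identifiers matched. Coding sequences were aligned with Biopython 1.88.

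The members, lists and rules were chosen with earlier results of these data known. Named are all members, the called genes of each list (at most 4, by adjusted p), or its 2 most abundant per kb where none was called, the 3 genes most like each member and the nearest neighbours. Alternatives were DESeq2 1.42.0, limma-voom (limma 3.58.1), other scalings and filters, thinning, a replicate block and each library left out. On simulated counts for the 20941 genes of this comparison, the test found 67 of 100 genes with a 1.5-fold change and 95 of 100 with a 2-fold change at a mean of at least 2 CPM. Of its 179 calls, 17 were unchanged genes, and with no gene changed it made 1 call. Changes under 1.5-fold, which include those of GPAT4, GPAT5 and GPAT6, were not simulated.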

Additional observations from a re-analysis of the deposited data

How the results depend on the processing

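The falls of GPAT4, GPAT5 and GPAT6 kept their direction and call under the other scalings (DESeq2 size factors, upper quartile), without the low-count filter or with a CPM minimum of 1, in DESeq2, in limma-voom and in thinned libraries. GPAT1 passed at -0.40 with upper-quartile scaling, at -0.37 without the filter and in DESeq2, and at -0.42 in thinned libraries, but not with DESeq2 size factors, with the CPM minimum of 1 (-0.38 each) or in limma-voom (-0.37). Among lipid assembly genes 1 was called raised in thinned libraries. With a replicate block GPAT1 passed at -0.38, 1 lipid assembly gene was called raised, and 2069 genes were called in all. Deviations of same-numbered libraries had correlations of -0.006, 0.024 and 0.084, against -0.065 to 0.034 for the other pairs. The labels do not state whether equal numbers pair samples, and correlations over all genes cannot decide it.

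With 1 library left out, log2 values ran from -0.49 to -0.33 for GPAT4, -0.61 to -0.42 for GPAT5, -0.68 to -0.50 for GPAT6, -0.47 to -0.30 for GPAT1, -0.25 to 0.02 for GPAT2, 0.05 to 0.30 for GPAT3, -0.52 to -0.09 for GPAT7, -0.27 to -0.14 for GPAT8 and -0.08 to 0.04 for GPAT9. Calls among the members then numbered 1 to 3 lowered, among suberin partners 6 to 9 lowered, among cutin partners 1 to 3 lowered, among acyl-CoA synthetases 0 to 2 lowered, among regulators 0 to 1 lowered and among lipid assembly genes 0 to 1 raised. All called genes numbered 1024 (without WT 1) to 1670 (without WT 3), against 1739 with all 6 libraries. The fits of 5 libraries have fewer samples, and other causes of these shifts were not tested. The 3 counts that limit detection correspond to 0.154 CPM in WT 3, the shallowest library, and 0.0537 CPM in myb68 myb84 3, the deepest.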
